A study of Mus musculus with 12 samples.

Results

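The 6 genes described here encode the beta subunits of the sodium-potassium pump (Na,K-ATPase), Atp1b1, Atp1b2 and Atp1b3, and the cation-chloride cotransporters Slc12a2, Slc12a5 and Slc12a7. They were taken by symbol from the 55348 genes of the count tables, and all 6 passed the filter on low counts that left 19052 genes for testing. RNA of the mouse organ of Corti at postnatal day 21 was sequenced in 4 genotypes with 3 libraries each, and the question was how the transcriptome differs when clarin-1, clarin-2 or both are lost. Wild-type mice were compared with Clrn1-/- mice, in which exon 4 of Clrn1 was deleted throughout the body with a PGK-cre driver, with Clrn2-/- mice, which carry the clarinet nonsense allele of Clrn2, and with Clrn1-/-Clrn2-/- mice bred from both. Each mutation is constitutive, so no cell type was targeted. Since wild-type mice were bred apart from the mutants, breeding and genotype cannot be told apart. The labels do not say that the 3 libraries of a genotype came from separate animals, and p-values measure the spread between these libraries.

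The Na,K-ATPase spends ATP to carry sodium out of the cell and potassium in. Its alpha subunit is the catalytic part, and its beta subunit is a glycoprotein needed for the pump to mature and reach the membrane. Cation-chloride cotransporters use the gradients that the pump builds: Slc12a2 (NKCC1) brings sodium, potassium and chloride into cells and feeds potassium secretion in the stria vascularis, whereas Slc12a5 (KCC2), a neuronal protein, and Slc12a7 (KCC4), found in supporting cells next to hair cells, carry potassium and chloride out.

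On GRCm38 with the Gencode M21 gene models, Atp1b1 (ENSMUSG00000026576.12) lies on chr1:164437109-164458355, Atp1b2 (ENSMUSG00000041329.13) on chr11:69599736-69605942 and Atp1b3 (ENSMUSG00000032412.8) on chr9:96332655-96364442, all on the minus strand. The cotransporter genes Slc12a5 (ENSMUSG00000017740.17, chr2:164960802-164999731) and Slc12a7 (ENSMUSG00000017756.9, chr13:73733094-73816754) lie on the plus strand. All are protein-coding. Atp1b1 shares 575 exonic bases with Nme7 on the opposite strand, and counting without regard to strand gave 0.756 to 0.800 of its stranded count, since such reads are then ambiguous.

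RefSeq promoter windows on GRCm38.p6 are shown for the 3 genes whose level moved between genotypes past an adjusted p of 0.05 in the most comparisons. Each holds 250 bases before and 50 after the start that RefSeq lists. Capitals mark matches, on either strand, to 5 motifs: the GC box (GGGCGG), the CCAAT box (its name gives its letters), a TATA-like motif (TATATA), the TATA box proper (TATAAA) and an E-box (CACGTG). The windows lie at chr1:164458306-164458605 (minus strand) for Atp1b1, chr9:96364382-96364681 (minus strand) for Atp1b3 and chr13:73763410-73763709 (plus strand, within the annotated span of the gene) for Slc12a7. For Atp1b3 and Slc12a7 the first of 2 listed windows was taken. The listed start of Slc12a7 lies inside the gene, downstream of its Gencode M21 start at chr13:73733094.
Atp1b1: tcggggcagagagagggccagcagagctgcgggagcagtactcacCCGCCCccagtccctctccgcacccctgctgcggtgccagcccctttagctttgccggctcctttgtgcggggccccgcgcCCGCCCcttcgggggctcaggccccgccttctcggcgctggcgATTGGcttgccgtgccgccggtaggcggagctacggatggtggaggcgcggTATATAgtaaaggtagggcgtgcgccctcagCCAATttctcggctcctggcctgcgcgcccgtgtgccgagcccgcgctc
Atp1b3: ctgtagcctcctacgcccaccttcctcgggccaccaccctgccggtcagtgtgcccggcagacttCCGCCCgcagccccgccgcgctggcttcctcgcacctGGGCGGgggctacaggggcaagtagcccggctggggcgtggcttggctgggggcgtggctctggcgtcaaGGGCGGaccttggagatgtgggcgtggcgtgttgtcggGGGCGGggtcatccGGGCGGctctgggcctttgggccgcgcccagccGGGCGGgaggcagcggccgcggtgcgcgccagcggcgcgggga
Slc12a7: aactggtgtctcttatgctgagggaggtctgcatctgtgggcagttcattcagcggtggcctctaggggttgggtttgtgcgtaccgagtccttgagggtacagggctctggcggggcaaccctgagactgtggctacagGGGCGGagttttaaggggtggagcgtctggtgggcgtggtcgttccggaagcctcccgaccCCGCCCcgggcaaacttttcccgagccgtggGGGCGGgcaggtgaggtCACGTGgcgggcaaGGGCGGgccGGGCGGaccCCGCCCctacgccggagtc
The Atp1b1 window held the TATA-like motif 30 bases before the start, the CCAAT box 2 times and the GC box 2 times. Those of Atp1b3 and Slc12a7 each held the GC box 6 times and no CCAAT box, TATA box or TATA-like motif. That of Slc12a7 held the E-box at its listed start. Of 32851 promoter windows of this length, the GC box was found in 35.7%, the CCAAT box in 37.4%, the TATA-like motif in 5.67%, the TATA box in 13.6% and the E-box in 7.15%. The matches describe the letters of these windows, and binding was not measured. RefSeq windows were found for 4 of the 6 genes, the fourth being Slc12a5, and not for Atp1b2 and Slc12a2.

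Counts on genes ranged from 30008679 to 41049302 per library. Clrn1 was at 25.8 ± 2.47 CPM (the count of a gene scaled to the library's total on genes; mean ± SD, n = 3) in wild-type and 28.8 ± 2.83 in Clrn2-/- mice, against 2.83 ± 0.184 in Clrn1-/- and 2.30 ± 0.482 in double mutants. Clrn2, at 2.72 ± 0.727 CPM in wild-type, was at 1.23 ± 0.172 in Clrn2-/- and 1.08 ± 0.138 in double mutants, and also at 0.916 ± 0.107 in Clrn1-/- mice. Markers of hair cells and of supporting cells, 10 genes each, were all measured, but those of neurons summed to 13284 to 14661 CPM in wild-type against 290 to 347 for hair cells, although the modiolus and stria vascularis were removed in dissection. In such bulk tissue, fewer cells of a type and less RNA per cell cannot be told apart.

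Atp1b1 was by far the most abundant of the 6 transcripts, and Slc12a5 the least. Per kilobase of exon, wild-type means were 783 ± 37.7 CPM for Atp1b1, 142 ± 3.55 for Atp1b3 and 65 ± 17.3 for Atp1b2. The cotransporters stood at 40.6 ± 1.07 for Slc12a2, 38.1 ± 1.68 for Slc12a7 and 0.902 ± 0.225 for Slc12a5. Slc12a2 and Slc12a7 overlapped between libraries, and their order turns with the length used: per kilobase of the principal transcript, Slc12a7 stood at 93.9, beside Atp1b2 at 93.6, and Slc12a2 at 68.1. Ranked by CPM in wild-type, Atp1b1 was 25th of 19052 genes and Slc12a5 11866th. Among the beta subunits in wild-type, Atp1b1 held 79 ± 2.38% of the summed CPM per kilobase, Atp1b3 14.4 ± 0.556% and Atp1b2 6.59 ± 1.85%.

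**Figure D1:**
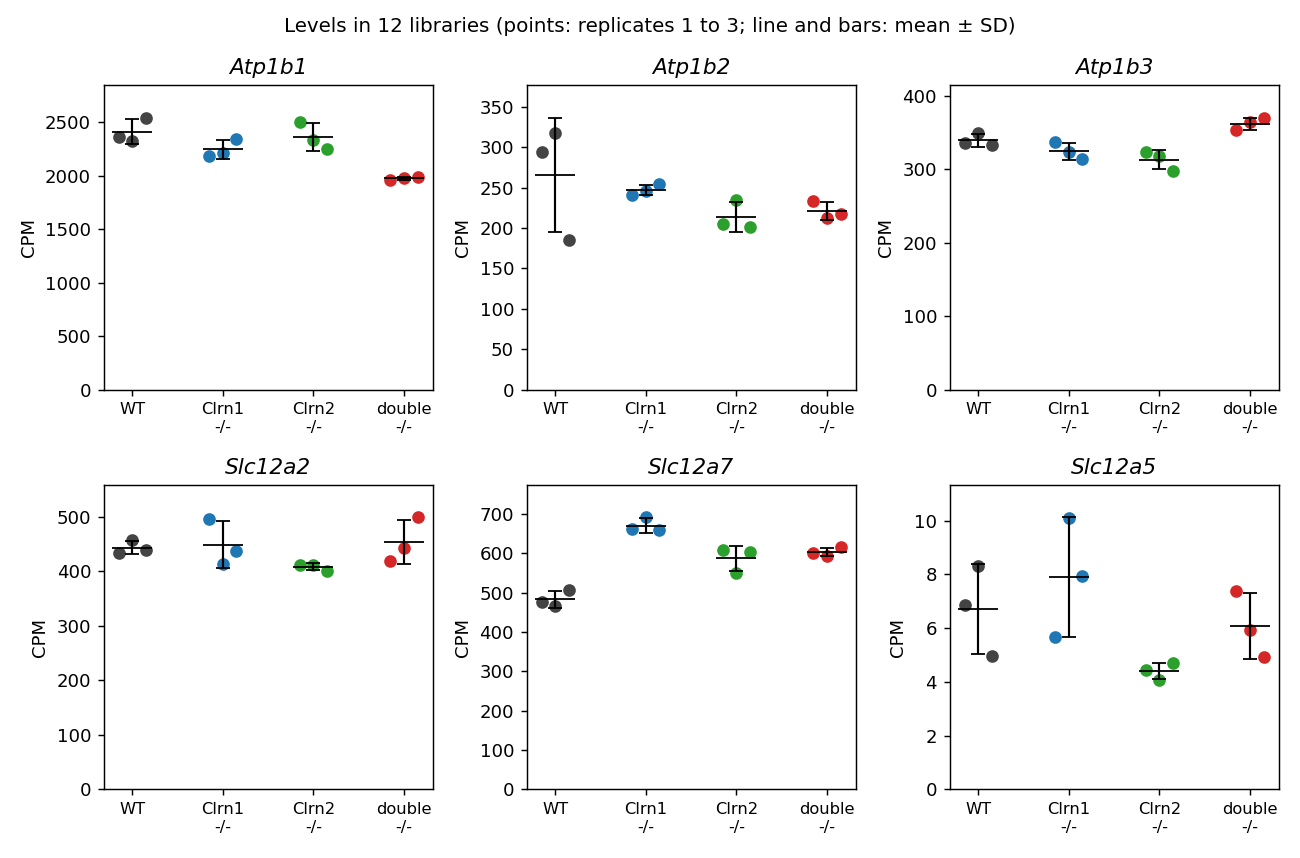
CPM of the 6 genes in 12 libraries by genotype (double, Clrn1-/-Clrn2-/-); each point is 1 library, and the line with bars is the mean ± SD of 3. Slc12a7 was between 466 and 507 CPM in wild-type and between 550 and 691 in the 9 mutant libraries, and Atp1b1 was lowest in the 3 double mutant libraries, at 1960 to 1989.

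The main criterion for a change was an adjusted p of at most 0.05 by edgeR's quasi-likelihood test over all 19052 genes with a fold change of at least 1.5. Against wild-type none of the 6 genes met it in any mutant, whereas 7.22% of all genes met it in Clrn1-/- mice, 2.66% in Clrn2-/- mice and 9.90% in double mutants. At an unadjusted p under 0.05, 1, 4 and 2 of the 6 passed in these comparisons, against 37.9%, 27.6% and 45.2% of all genes. DESeq2 made 0, 1 and 0 calls under the main criterion and limma-voom 0 in each. By the adjusted p alone, 1 of 6 passed in Clrn1-/- (26.9% of all genes), 1 in Clrn2-/- (14.2%) and 2 in double mutants (37.0%), so these shares were near the background. The median log2 fold change of the 6 genes was -0.02, -0.12 and -0.06, beside medians of -0.0031, -0.0025 and 0.001 over all genes. The 3 comparisons share their wild-type libraries.

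**Figure D2:**
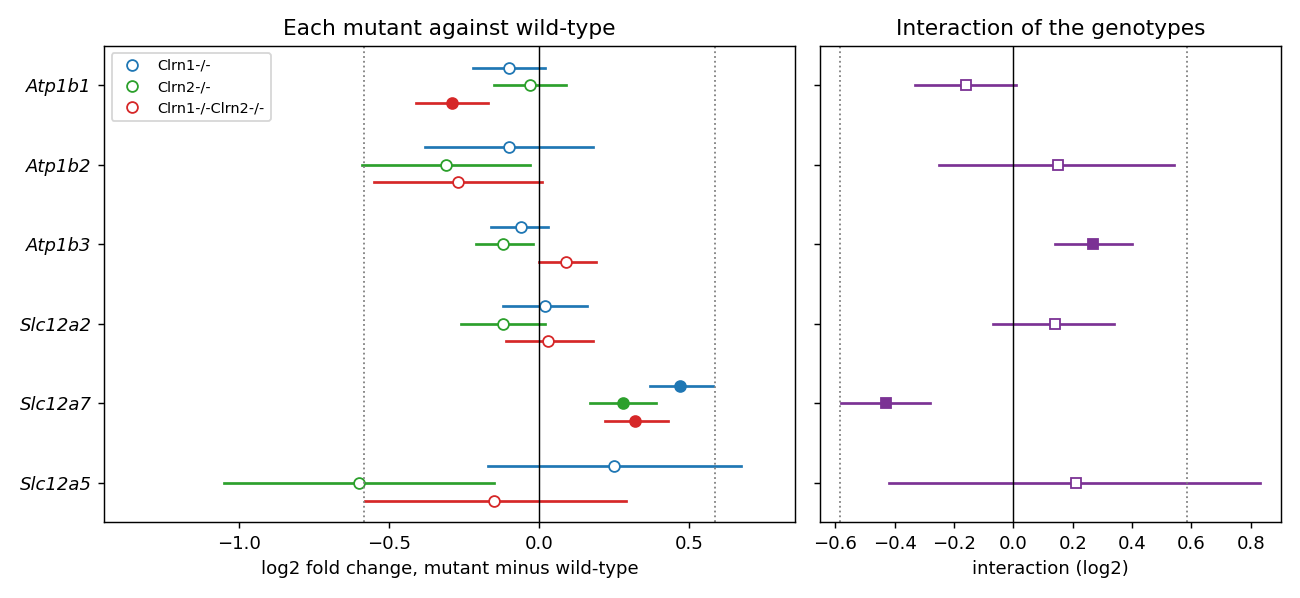
Left, log2 fold changes of each mutant against wild-type; right, the interaction of both genotypes, that is, the change in double mutants minus the sum of the changes in single mutants (log2). Lines are 95% intervals, filled symbols passed an adjusted p of 0.05, and dotted lines mark 1.5-fold. Slc12a7 was higher in all 3 mutants, and its interaction of -0.43 was negative.

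Among the beta subunits, Atp1b1, which encodes the most widely used beta subunit, was lower in double mutants. It was at 2360, 2329 and 2544 CPM in the 3 wild-type libraries, 2184, 2213 and 2347 in Clrn1-/-, 2501, 2339 and 2248 in Clrn2-/-, and 1960, 1977 and 1989 in Clrn1-/-Clrn2-/- mice. The double mutant libraries were thus close together and below all 9 others, while single mutants overlapped with wild-type. Atp1b1 was 18.1% below wild-type in double mutants (mean 1976 ± 14.3 against 2411 ± 116 CPM; log2 fold change -0.29, SE 0.0569, adjusted p = 0.000844), a change smaller than the 1.5-fold minimum. It was also lower in double mutants than in Clrn2-/- mice (-0.26, adjusted p = 0.00323) and in Clrn1-/- mice (-0.19, adjusted p = 0.0202, which became 0.0652 without replicate 3 of Clrn1-/-). In single mutants the differences from wild-type of -0.10 (95% interval -0.22 to 0.02) and -0.03 (-0.15 to 0.09) did not pass, and neither did the interaction (-0.16, adjusted p = 0.202). Neuron markers moved with Atp1b1: their sum was 9381 to 9559 CPM in double mutants against 13284 to 14661 in wild-type, with 13 of 15 genes lower and a median log2 fold change of -0.40. In Clrn2-/- and Clrn1-/- mice it was 11652 to 13419 and 12349 to 12874 CPM. No marker was at 0, and the part of neurons in the Atp1b1 result was not tested.

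Atp1b3, which encodes the beta-3 subunit, went the other way in double mutants. Its libraries read 336, 349 and 333 CPM in wild-type, 337, 323 and 314 in Clrn1-/-, 323, 318 and 298 in Clrn2-/- and 353, 364 and 369 in Clrn1-/-Clrn2-/- mice. The 3 double mutant libraries lay above all 9 others, and Clrn2-/- lay wholly below wild-type. Differences from wild-type were small: -0.06 (adjusted p = 0.315) in Clrn1-/-, -0.12 (0.0961) in Clrn2-/- and 0.09 (0.114) in double mutants, none of which passed. With library size alone in place of TMM scaling, the double mutant difference was 0.13 and did pass (adjusted p = 0.0211). The double mutants did exceed Clrn2-/- mice by 15.5% (log2 fold change 0.21, SE 0.0441, adjusted p = 0.00246) and Clrn1-/- mice by 11.5% (0.16, adjusted p = 0.0128). The latter no longer passed without replicate 2 or 3 of Clrn1-/- or of double mutants (adjusted p of up to 0.089). Single mutant changes added up to -0.18 on the log2 scale whereas the double mutants stood at 0.09, and this interaction of 0.27 (SE 0.0624) passed at an adjusted p of 0.00693. Without the fold minimum, 2 of 6 genes passed the interaction test, Atp1b3 and Slc12a7, against 17.4% of all genes, and with it 0 of 6 passed, against 5.50%. At an unadjusted p under 0.05 the count was 2 of 6, against 30.3% of all genes, and DESeq2 and limma-voom made 0 calls with the fold minimum. Markers of spiral ligament fibrocytes had a median interaction of 0.65, and 3 of 6 were called. They summed to 6529 to 8852 CPM in wild-type, 4372 to 4810 in Clrn1-/-, 4381 to 4798 in Clrn2-/- and 6098 to 7589 in double mutants. Red blood cell markers had a median interaction of 1.53 and neuron markers -0.17. The part of any cell type in the Atp1b3 result was not tested.

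Atp1b2, the beta-2 subunit, also known as a glial adhesion molecule, could not be placed because 1 wild-type library differed from the other two. It was at 294, 318 and 185 CPM in wild-type, 241, 246 and 254 in Clrn1-/-, 205, 235 and 201 in Clrn2-/- and 233, 212 and 217 in Clrn1-/-Clrn2-/- mice. Wild-type replicate 3 was lower than all mutant libraries, whereas the other wild-type libraries were higher than all of them. With all libraries, the log2 fold changes of -0.10, -0.31 and -0.27 against wild-type had adjusted p-values of 0.61, 0.134 and 0.127. Without wild-type replicate 3 they were -0.31, -0.52 and -0.48, with adjusted p-values of 0.00238, 7.43e-05 and 2.21e-05. With no library left out but no filter on low counts, Clrn2-/- (-0.31, adjusted p = 3.32e-08) and double mutants (-0.28, adjusted p = 2.71e-07) passed as well. The stria vascularis markers moved alike in these libraries: the 12 genes summed to 724, 815 and 545 CPM in wild-type replicates 1, 2 and 3, and to 618 to 773 CPM in mutants. Markers of spiral ligament fibrocytes summed to 7137, 6529 and 8852 CPM in the same 3 libraries. Neither contribution to the Atp1b2 values was tested.

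As a share of the beta subunits, Atp1b1 had its lowest mean in double mutants, 75.7 ± 0.127% of summed CPM per kilobase, and Atp1b3 stood at its highest, 17.9 ± 0.281%, against 14.4 ± 0.556% in wild-type, 14.7 ± 0.894% in Clrn1-/- and 13.8 ± 0.213% in Clrn2-/- mice. The double mutant libraries held 17.6% to 18.1% Atp1b3 and did not overlap with any other genotype, which reached 15.5% at most. The shares are a description and were not tested apart from the fold changes of each gene.

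**Figure D3:**
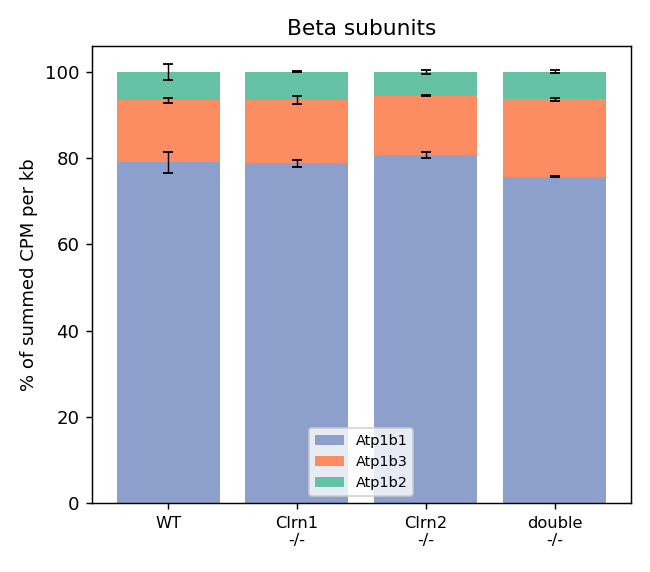
Mean share of each beta subunit in the summed CPM per kilobase of exon, by genotype (double, Clrn1-/-Clrn2-/-); error bars give the SD, over 3 libraries, of the share of the segment that ends there. Atp1b3 went from 14.4% in wild-type to 17.9% in double mutants, and Atp1b1 from 79% to 75.7%.

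Of the catalytic partners of the beta subunits, Atp1a4, an alpha subunit known from sperm, had 2, 0 and 4 counts in wild-type and 1, 2 and 4 in Clrn2-/- libraries, against 43, 67 and 70 in Clrn1-/- and 15, 10 and 20 in double mutant libraries. The Clrn1-/- and double mutant libraries were thus above all wild-type and Clrn2-/- libraries. Atp1a4 passed the filter on low counts only through the genotypes in which it was high, so its counts are a description, and neither a test nor a fold is given.

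Slc12a7, the KCC4 cotransporter of supporting cells, was the gene of the 6 that differed from wild-type in every mutant. Its level was 476, 466 and 507 CPM in wild-type, 661, 691 and 658 in Clrn1-/-, 607, 550 and 603 in Clrn2-/- and 601, 594 and 615 in Clrn1-/-Clrn2-/- mice. All 9 mutant libraries exceeded all wild-type libraries, and Clrn1-/- exceeded the other mutants without overlap. Slc12a7 was 38.7% higher in Clrn1-/- (log2 fold change 0.47, SE 0.0496, adjusted p = 5.38e-06), 21.4% higher in Clrn2-/- (0.28, SE 0.0495, adjusted p = 0.00129) and 24.9% higher in double mutants (0.32, SE 0.0495, adjusted p = 9.16e-05), each below 1.5-fold. It passed the adjusted p in all 19 alternative analyses of each of these comparisons.

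The single mutant changes of Slc12a7 did not add up in double mutants. Their sum was 0.75 on the log2 scale and the double mutants stood at 0.32, an interaction of -0.43 (SE 0.07, adjusted p = 0.00058). Clrn1-/- mice were above Clrn2-/- mice by 0.19 (adjusted p = 0.0132) and above double mutants by 0.15 (log2 of double mutants against Clrn1-/- -0.15, adjusted p = 0.0294), whereas double mutants and Clrn2-/- mice differed by 0.04 (95% interval -0.06 to 0.15, adjusted p = 0.593). The first no longer passed without replicate 2 of Clrn1-/- or of Clrn2-/- (adjusted p of up to 0.0657), and the second without replicate 2 of Clrn1-/- or replicates 1 or 2 of double mutants (up to 0.078). Supporting cell markers were also higher in each mutant, at 1150 to 1269 CPM in Clrn1-/-, 1157 to 1351 in Clrn2-/- and 1649 to 1742 in double mutants, with medians of 0.35, 0.23 and 0.69. They were thus highest in double mutants, while Slc12a7 was highest in Clrn1-/- mice. All 10 markers were detected in every library. Markers of red blood cells ran opposite to Slc12a7: the 5 genes were all lower in each mutant, with medians of -1.43 in Clrn1-/-, -0.73 in Clrn2-/- and -0.56 in double mutants. Their sum was 700 to 1139 CPM in wild-type, 278 to 379 in Clrn1-/-, 426 to 642 in Clrn2-/- and 535 to 714 in double mutants, so it was lowest in Clrn1-/- mice. The part of either cell type in the Slc12a7 result was not tested.

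Over 12 libraries, the genes whose centred log2 CPM followed Slc12a7 most closely, among 12452 genes that averaged 5 CPM or more, were Cemip2, Cep85l and Yjefn3, with root mean square differences of 0.0566, 0.0601 and 0.0628 beside a median of 0.211 over all genes. They were looked up after the values of Slc12a7 had been seen. Cemip2, a transmembrane hyaluronidase, was at 54 CPM in wild-type, 73.8 in Clrn1-/- mice, 61.8 in Clrn2-/- mice and 62.1 in double mutants.

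Slc12a2 (ENSMUSG00000024597.11, chr18:57878678-57946821, plus strand), the inward cotransporter NKCC1, did not differ detectably from wild-type. Its libraries stood at 434, 457 and 440 CPM in wild-type, 496, 413 and 438 in Clrn1-/-, 412, 412 and 401 in Clrn2-/- and 419, 443 and 499 in Clrn1-/-Clrn2-/- mice. Clrn2-/- libraries were all below wild-type, and the other mutants overlapped with it. Log2 fold changes were 0.02 (95% interval -0.12 to 0.16), -0.12 (-0.26 to 0.02) and 0.03 (-0.11 to 0.18), with adjusted p-values of 0.88, 0.268 and 0.744. The intervals leave out a change of 1.5-fold in either direction. The ratio of Slc12a7 to Slc12a2 CPM, which compares genotypes and not the levels of both genes, was 1.09 ± 0.0655 in wild-type, 1.5 ± 0.171 in Clrn1-/- mice, 1.44 ± 0.0891 in Clrn2-/- mice and 1.34 ± 0.101 in double mutants, and no mutant library fell within the wild-type range of 1.02 to 1.15.

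Slc12a5, the neuronal chloride exporter KCC2, was rare, with 133 to 392 counts per library. It was at 6.88, 8.3 and 4.96 CPM in wild-type, 5.66, 10.1 and 7.95 in Clrn1-/-, 4.46, 4.07 and 4.69 in Clrn2-/- and 7.38, 5.94 and 4.92 in Clrn1-/-Clrn2-/- mice. The 3 Clrn2-/- libraries were below all 9 others, while the remaining genotypes overlapped. Between single mutants, Slc12a5 was 1.8 times higher in Clrn1-/- than in Clrn2-/- mice (log2 fold change 0.85, SE 0.208, adjusted p = 0.00992), and it was the only call among the 6 genes, 1 of 6, where 4.73% of all genes were called. Without replicate 2 of Clrn1-/-, which had the highest value, the difference was 0.63 and the adjusted p 0.0685. By adjusted p alone 2 of 6 passed in this comparison, Slc12a5 and Slc12a7, against 18.5% of all genes, and the same number passed at an unadjusted p under 0.05, against 32.1%. Against wild-type, the differences were 0.25 (adjusted p = 0.394) in Clrn1-/-, -0.60 (95% interval -1.05 to -0.15, adjusted p = 0.0702) in Clrn2-/- and -0.15 (adjusted p = 0.619) in double mutants. The Clrn2-/- difference passed with DESeq2 (adjusted p = 0.0266), with no filter on low counts, without wild-type replicate 3 (-0.78, adjusted p = 0.0144) and without Clrn1-/- replicate 1 (adjusted p = 0.0413).

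Between double and single mutants, 0 of 6 genes were called under the main criterion by edgeR, against 7.23% of all genes for Clrn1-/- and 5.10% for Clrn2-/-, with 3 of 6 at an unadjusted p under 0.05 in each (40.0% and 38.0% of all genes) and 0 calls by DESeq2 and limma-voom. By adjusted p alone, 3 of 6 passed against Clrn1-/- (30.4% of all genes), with Atp1b1 and Slc12a7 lower and Atp1b3 higher in double mutants. Against Clrn2-/- mice, 2 of 6 passed (27.6% of all genes), Atp1b1 lower and Atp1b3 higher. Libraries did not overlap between the groups for 1, 4 and 3 of the 6 genes in Clrn1-/-, Clrn2-/- and double mutants against wild-type, where 40.2%, 29.0% and 48.2% of all genes did not.

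Beyond the 6 genes, the wider family and its regulators were read from pathway lists. Of 6 further SLC12 genes 4 were tested, and none was called in any mutant against wild-type by edgeR. In Clrn1-/-, Clrn2-/- and double mutants, 7.22%, 2.66% and 9.90% of all genes were called. Slc12a4, the KCC1 cotransporter, was at 79.6 ± 0.462 CPM in wild-type. It was 0.12 higher in double mutants (adjusted p = 0.0194) and differed by -0.14 in Clrn2-/- mice (adjusted p = 0.0219), both far below 1.5-fold. By adjusted p alone, 1 of the 4 passed in each of these comparisons, against 37.0% and 14.2% of all genes. The WNK and SPAK/OSR1 kinase pathway switches these cotransporters on and off by phosphorylation. Of its 10 listed genes none was called in any mutant against wild-type, where 7.22%, 2.66% and 9.90% of all genes were. By adjusted p alone, 2 were higher and 3 lower in double mutants, 5 of 10 where 37.0% of all genes passed, among them Wnk4 at 0.56 (adjusted p = 0.000565) and Wnk3 at -0.42 (adjusted p = 0.000187).

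Of 11 FXYD and NKAIN genes, small partners that tune the pump, 10 were tested and 1 was called in double mutants, a share near the 9.90% of all genes. Fxyd2, the gamma subunit of the pump, was at 10.9 ± 1.91 CPM in wild-type, 7.41 ± 0.703 in Clrn1-/- mice, 18.7 ± 1.85 in Clrn2-/- mice and 22.8 ± 0.845 in double mutants. It rose in Clrn2-/- (log2 fold change 0.78, adjusted p = 0.000192) and in double mutants (1.07, adjusted p = 1.3e-06), while in Clrn1-/- mice it was -0.55 from wild-type (adjusted p = 0.00246, under the fold minimum). Fxyd2 was thus below wild-type in Clrn1-/- and above it in the other mutants.

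Of 10 genes of cochlear potassium and chloride circulation, 9 were tested, and in double mutants 3 were called higher and 1 lower, where 5.88% of all genes were called higher and 4.02% lower. Kcnj16, an inward rectifier potassium channel subunit (Kir5.1), was at 157 ± 20.5 CPM in wild-type, 238 ± 12.2 in Clrn1-/- mice, 202 ± 17.8 in Clrn2-/- mice and 502 ± 33.2 in double mutants (log2 fold change 1.68, adjusted p = 1.02e-09). Its partner Kcnj10 (Kir4.1) rose from 218 ± 22.1 to 346 ± 12.4 CPM (0.67, adjusted p = 3.24e-07), and Slc26a4, the anion exchanger pendrin, from 55.7 ± 7.91 to 118 ± 3.38 CPM (1.08, adjusted p = 1.78e-07). Without wild-type replicate 3 the Kcnj10 difference was 0.58, under the fold minimum. Kcne1, the accessory subunit of the strial potassium channel, was at 3.39 to 11.7 CPM in wild-type and 1.49 to 3.84 in double mutants (-1.65, adjusted p = 0.0212). That call was lost without wild-type replicate 1 or 2 (adjusted p = 0.0649 and 0.08), without double mutant replicate 1 or 2 (0.0564 and 0.0932) and with limma-voom (0.0855). Kcnj10 and Kcne1 are also among the stria vascularis markers, of which 2 of 12 were called higher and 3 lower in double mutants. In all, 10 of the 12 were lower, with a median log2 fold change of -0.62. Their sums were 721 to 773 CPM against 545 to 815 in wild-type, and Kcnj10 itself made up a large part of them. Supporting cell markers were higher with Kcnj16, Kcnj10 and Slc26a4: in double mutants 9 of 10 were higher and 6 of these were called. Their median difference was 0.69 on the log2 scale, and they summed to 1649 to 1742 CPM against 992 to 1110 in wild-type. The part of supporting cells in these results was not tested.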

How the data were processed

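Poly-A RNA was sequenced as strand-specific paired reads of 100 bases. The authors mapped reads with STAR to GRCm38.p6 (Gencode M24) and deposited unnormalized counts per gene, 1 table per library. The column of the kit's orientation was used, holding 95.2% to 95.6% of stranded counts. Rows naming no gene (13.5% to 15.8%) were left out. Coordinates came from Gencode M21.

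Genes with a minimum count of 10 by filterByExpr were kept. Libraries were scaled by TMM (0.963 to 1.02) and fitted together by genotype with edgeR 4.0.16 in R 4.3.3 (quasi-likelihood test, Benjamini-Hochberg adjustment over 19052 genes), with DESeq2 1.42.0 and limma 3.58.1 as alternatives. The steps were tested on simulated data. CPM were scaled to each library's total on the tested genes, multiplied by its TMM factor. Between pairs of libraries of a genotype, the variance was 4.13 to 17.4 times that of sampling noise. The 6 genes and the lists were chosen with earlier results of these data known. Named from each list were genes called in double mutants, up to 4 by fold change, and detected alpha subunits, some of which are not reported here; Slc12a4, Wnk3 and Wnk4 were added after their values were seen. Wild-type and Clrn1-/- libraries of the same number deviated together (correlations 0.269, 0.126 and 0.105 over 12453 genes); in other comparisons not every pair did (-0.277 to 0.301).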

Additional observations from a re-analysis of the deposited data

Results flagged for a closer look

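For 2 of the 6 genes the effect of losing one clarin differed with the state of the other, by the interaction term of edgeR's quasi-likelihood test. They passed by the adjusted p alone, as did 17.4% of all genes. With the fold minimum 0 of 6 passed, against 5.50% of all genes. For Slc12a7 the interaction was -0.43 on the log2 scale (adjusted p = 0.00058): each single mutant was above wild-type, and the double mutants lay below the sum of both. For Atp1b3 it was 0.27 (adjusted p = 0.00693): the single mutants stood at -0.06 and -0.12 and the double mutants at 0.09. Both passed in 18 of 18 alternative analyses, with ranges of -0.49 to -0.41 and 0.22 to 0.29.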

How the results depend on the processing

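Precision was limited by 3 libraries per genotype: in wild-type the coefficient of variation was 25% for Slc12a5, which had 133 to 392 counts per library, and 52.5% for Kcne1. No gene of the 6 was called against wild-type, apart from Slc12a5 in Clrn2-/- mice, 1 call with DESeq2 and 1 with no filter on low counts. With no fold minimum, calls were 1, 1 and 2 in Clrn1-/-, Clrn2-/- and double mutants against wild-type, 2 for Clrn1-/- against Clrn2-/-, 3 and 2 for double mutants against Clrn1-/- and Clrn2-/-, and 2 for the interaction. Leaving out 1 library gave 0 to 1 calls for Clrn2-/- against wild-type, for Clrn1-/- against Clrn2-/- and for double mutants against Clrn1-/-, in each case Slc12a5. The count was 1 without wild-type replicate 3 or Clrn1-/- replicate 1 in the first, 0 without Clrn1-/- replicate 2 in the second, and 1 without Clrn1-/- replicate 1 in the third. A replicate block changed no call of the 6 genes (0 calls in Clrn1-/- against wild-type), in the other comparisons included, where numbers were not shown to pair libraries.

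Signs turned only among differences that did not pass. With library size alone, Atp1b1 in Clrn2-/- mice stood at 0. Over fits with 1 library left out, log2 fold changes against wild-type were -0.07 to 0.01 for Atp1b1 and 0 to 0.15 for Kcnj10 in Clrn2-/- mice, -0.06 to 0.08 for Slc12a2 and -0.31 to 0.05 for Atp1b2 in Clrn1-/- mice, and -0.05 to 0.08 for Slc12a2 and -0.34 to 0.03 for Slc12a5 in double mutants. Double mutants against Clrn1-/- gave -0.07 to 0.08 for Slc12a2, and against Clrn2-/- -0.01 to 0.06 for Slc12a7 and -0.02 to 0.11 for Atp1b2. The Atp1b2 interaction was -0.02 to 0.34. The causes were not tested.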
